A study of Mus musculus with 6 samples.

Results

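The ubiquitin E2 conjugating enzymes were taken as the protein-coding genes whose symbol begins with Ube2 followed by a letter, with Ube2l6 left out. The rule found 36 genes among the 54532 genes of the deposited expression table, and it used no expression value. It goes by symbol alone, so a member such as Ube2cbp need not encode an E2 enzyme. An E2 enzyme receives ubiquitin from an activating E1 enzyme on a catalytic cysteine and hands it on, together with an E3 ligase, to a substrate or to a growing ubiquitin chain. The E2 often sets which lysine of ubiquitin carries the next one: chains on Lys48 mark proteins for the proteasome, chains on Lys63 serve signaling complexes such as those below Toll-like receptors, and chains on Lys11 drive mitotic degradation. A few relatives carry NEDD8, a small protein of the ubiquitin family, or other such modifiers, and others lack the catalytic cysteine and act as partners.

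RNA-seq was performed on peritoneal macrophages, wild type by genotype in all libraries, as untreated cells (Control), cells given lipopolysaccharide (LPS) and then ATP (Model), and cells given muscone in addition (MUS), with 2 libraries per group. The cells came from male C57BL/6J mice of 6–8 weeks, were elicited with thioglycolate and were held in culture overnight. LPS at 500 ng/mL, a bacterial ligand of Toll-like receptor 4, was given 5.5 h before 2 mM ATP, which opens the activation step of the NLRP3 inflammasome and was left for 0.5 h. Muscone, a macrocyclic ketone of musk, was added at 50 μM 0.5 h before ATP. Thus MUS vs. Model asks what muscone adds within the last hour or so of stimulation, and Model vs. Control asks what the whole stimulation does. No muscone-only group was analysed here, and the sources used here do not say how many mice a library pooled, so the spread between the 2 libraries of a group may be partly technical.

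Values are FPKM, fragments scaled to the length of the gene and to the size of the library. Between 15526321 and 17135442 fragments fell on genes in a library, and 17406 to 24906 genes had at least 1 fragment. Model replicate 1, with the 24906 genes, stood apart from the other 5 libraries, which had at most 19200. Macrophage markers were abundant in every library (8 of 8 genes tested, summed FPKM 9574 to 14283). The summed T cell, B cell, mast cell and mesothelial markers stayed at or below 1.59 FPKM, the eosinophil markers summed to 1.23 to 4.06 FPKM with Prg2 and Epx listed at 0, and the fibroblast markers to 11.4 to 22.4 FPKM. Neutrophil markers summed to 13.5 and 30.9 FPKM in Control, 112 and 57.7 in Model, with 64.6 and 50.8 in MUS, while S100a9, Elane, Ly6g and Retnlg were listed at 0 in all 6 libraries. The part of these markers in the E2 results was not tested, and in bulk RNA fewer cells of a type and less RNA per cell cannot be told apart.

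Of the 36 E2 genes, 30 were detected in all 6 libraries, and 28 had a mean of at least 1 FPKM and were tested. The 28 rested on 288 fragments over the 6 libraries for Ube2c up to 59988 for Ube2d3. The most abundant by mean FPKM was Ube2d2a, a broadly acting E2 that starts ubiquitin chains for many ligases. It measured 36.9 and 47.8 FPKM in Control, 81.2 and 56.3 in Model, with 69.9 and 56.2 in MUS. It was followed by Ube2b with a mean of 37.7 FPKM and by Ube2z with 29.4, and 15 E2 genes had a mean over 10 FPKM. At the low end of the tested genes, Ube2o, Ube2e2 and Ube2c had means of 1.73, 1.27 and 1.07 FPKM.

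**Figure D1:**
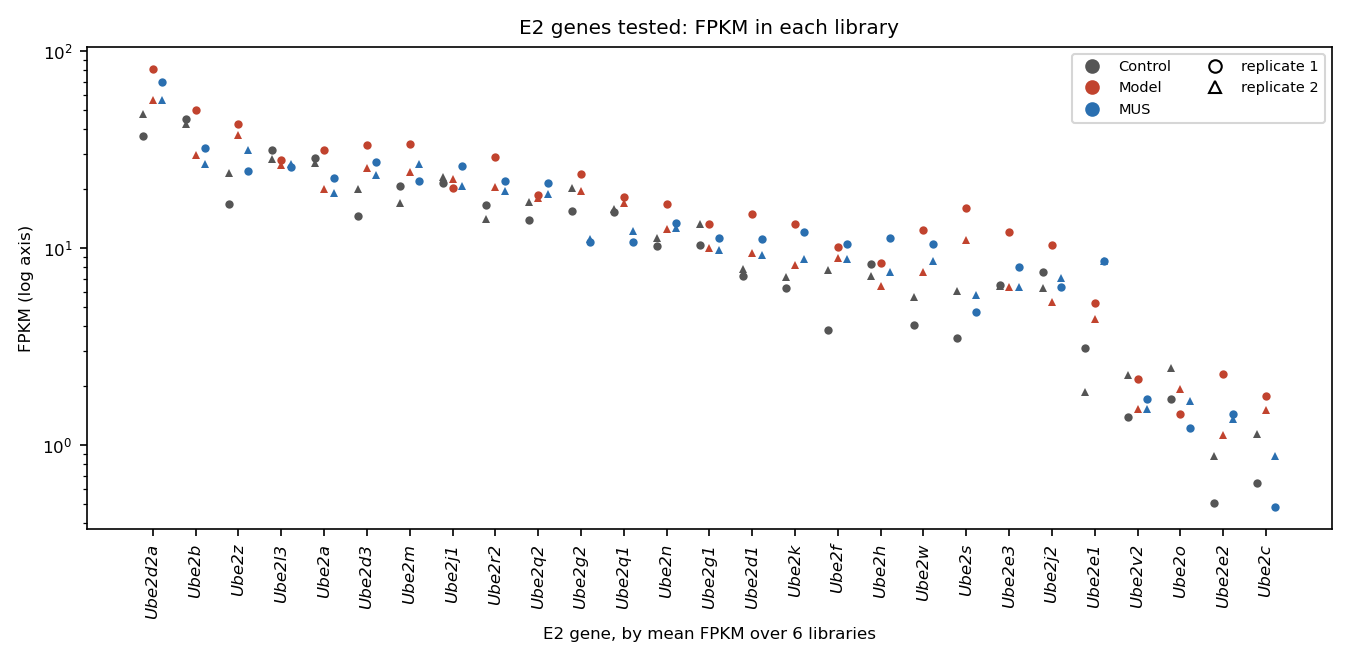
FPKM on a log axis of 27 of the 28 tested E2 genes in each of the 6 libraries, ordered by mean FPKM (grey Control, red Model, blue MUS; circles replicate 1, triangles replicate 2). Levels run from 58 FPKM on average for Ube2d2a to 1.07 for Ube2c, and Model replicate 1 is the top point for 18 of them.

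The order depends on the gene length that enters FPKM. The deposited length of Ube2d3, 24499 bases, is 6.39 times its longest coding transcript in GENCODE M21. Per kilobase of that transcript, Ube2d3 averaged 153 and ranked the 1st of the 36 genes instead of the 6th, and Ube2s, with a deposited length 4.15 times its transcript, averaged 32.5 and ranked the 6th instead of the 21st. Neighbours in the order could lie very close: Ube2d3 and Ube2m, the 6th and the 7th, had means over the 6 libraries of 24.01 and 24.00 FPKM and overlapped in every group.

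The 8 E2 genes below the filter rested on few fragments, 0 to 76 in all over the 6 libraries. For scale, 3 fragments on a gene of 1 kb make 0.131 to 0.213 FPKM depending on the library. Ube2t, the E2 of Fanconi anemia DNA repair, had 30 and 20 fragments in Control, 14 and 5 in Model, with 3 and 4 in MUS. Ube2v1, a catalytically inactive partner of Ube2n, had 6 to 16 fragments per library, and 63.5% of its 50-base stretches also occur in other genes. Gm20431, on the same strand and listed at 0 in all 6 libraries, covers 61.5% of the exon bases of Ube2v1. How reads there were assigned was not tested, so the low count of Ube2v1 need not be its level. Ube2cbp, Ube2ql1, Ube2dnl2, Ube2d2b and Ube2u had 24, 9, 4, 2 and 1 fragments in all, and Ube2dnl1 was listed at 0 in all 6 libraries. The 4 fragments of Ube2dnl2, the 2 of Ube2d2b and the 1 of Ube2u all lay in Model replicate 1.

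Model vs. Control asked how the E2 genes stood after priming and ATP. Only Ube2s, which elongates Lys11 chains with the anaphase-promoting complex, passed the test, and it rose. This is 1 of 28 (3.57%), beside 17.3% of all 9794 genes tested at an adjusted p of at most 0.05 (10.3% higher in Model). With an absolute log2 fold change over 1 required as well, the call rule of a DEG, Ube2s remained, beside 15.1% of all genes. The E2 genes had a median log2 fold change of 0.40, with 20 higher and 8 lower, beside 0.04 over all genes, but on fragment totals in place of the deposited per-million scale the median was -0.10, with 13 higher and 15 lower, beside -0.40 over all genes. Among genes with a mean of at least 5 FPKM, 24 of them E2 genes, the medians lay closer, at 0.40 beside 0.25. Model replicate 1 was the highest library for 18 of the 28 genes (64.3%, beside 24.2% of all genes). Without it the median was 0.20.

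Ube2s measured 3.496 and 6.05 FPKM in Control, 15.97 and 10.9 in Model, with 4.75 and 5.77 in MUS. Both Model libraries lay above the other 4, which overlapped between Control and MUS. The group means were 4.77 ± 1.81 FPKM in Control, 13.5 ± 3.56 in Model and 5.26 ± 0.723 in MUS (SD, n = 2). On log2(FPKM + 1), which understates changes of low genes, the rise in Model was 1.34 (SE 0.30, 95% interval 0.62 to 2.05, limma adjusted p = 0.0271), with 1.92 in batch 1 and 0.76 in batch 2. The call was lost without Control replicate 1 (1.01, adjusted p = 0.135), without Model replicate 1 (1.08, 0.116) and without MUS replicate 1 or 2 (adjusted p 0.0698 and 0.0686), and on fragment totals (0.87, 0.0588). Ube2s lies at chr7:4794546-4812590 on the minus strand, and 3.56% of its exon bases overlap Rpl28 on the other strand. The protocol in the labels describes no strand-marking step, so reads of the overlap cannot be assigned to either gene. Rpl28, a ribosomal protein gene, measured 53.6 and 19.1 FPKM in Control, 13.6 and 11.2 in Model, with 10.2 and 9.97 in MUS.

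Ube2c starts the chains that Ube2s elongates on the anaphase-promoting complex. It measured 0.639 and 1.14 FPKM in Control, 1.77 and 1.51 in Model, with 0.483 and 0.876 in MUS, so that both Model libraries again lay above the other 4, at low levels. Ube2c shares 22.8% of its exon bases with Tnnc2 on the other strand, which was listed at 0. In each of the 3 comparisons, 0 of 14 tested genes of the anaphase-promoting complex passed. Of all genes, 17.3% passed in Model vs. Control, 0% in MUS vs. Model and 24.4% in MUS vs. Control. The summed FPKM of the complex stayed between 74.4 and 86.6 in the 6 libraries on the deposited scale, which lowers Control relative to fragment totals. On the same scale the median log2 difference of the complex between Model and Control was 0.04. Cdc27, a core subunit, measured 5.94 and 7.25 FPKM in Control, 9.29 and 9.48 in Model, with 11.3 and 9.67 in MUS. Proliferation genes, of which 3 were tested, summed to 8.45 and 11.2 FPKM in Control, 11.2 and 12.9 in Model, with 15.8 and 14.2 in MUS. Mki67, a marker of cycling cells, measured 1.08 and 5.13 FPKM in Control, 4.43 and 5.62 in Model, with 6.87 and 5.75 in MUS. Tpx2 of the same list passed in MUS vs. Control, at 0.70 on the log2 scale (limma adjusted p = 0.0471) and 0.34 on fragment totals. This is 1 of 3 tested, beside 13% of all genes called higher. On the deposited scale the top of the proliferation list was in MUS, not in Model as for Ube2s and Ube2c. That scale lowers Control, so the place of Control in this order depends on it. The part of proliferation in the values of Ube2s and Ube2c was not tested.

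**Figure D2:**
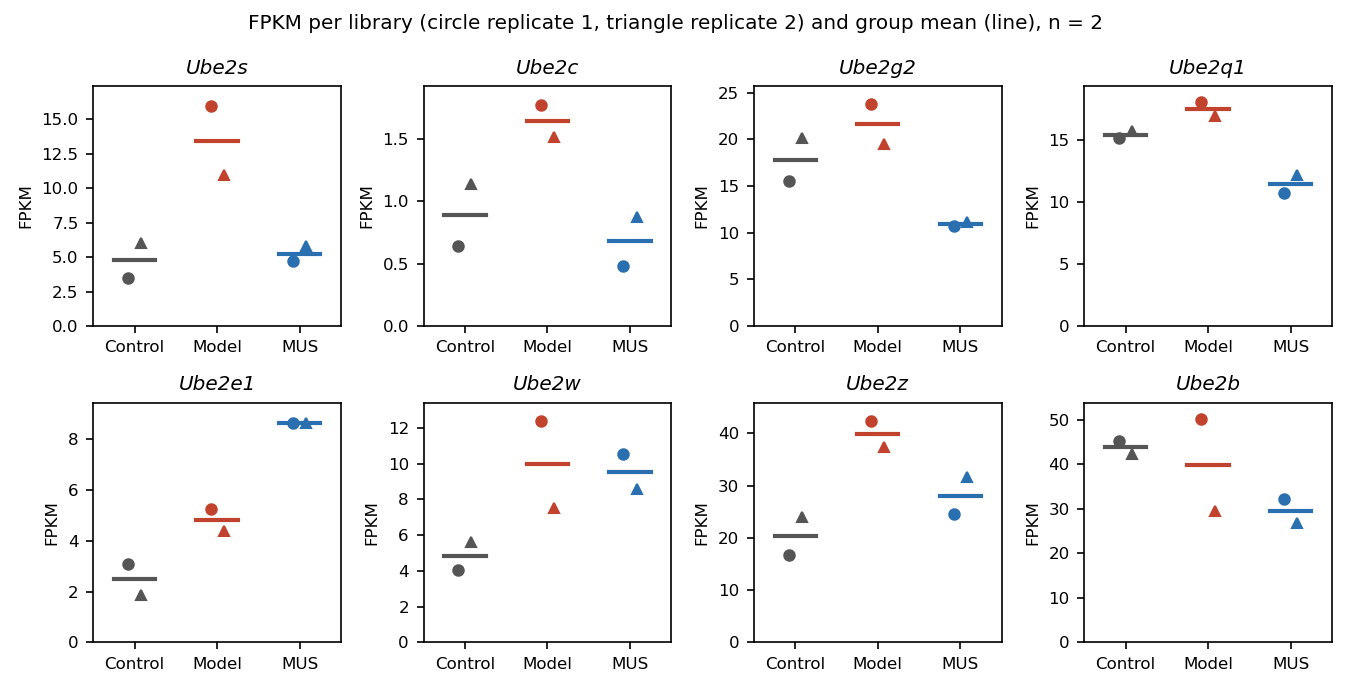
FPKM of 8 E2 genes in each library (circles replicate 1, triangles replicate 2) with the group mean as a line, n = 2 per group, each panel on its own axis from 0. Ube2s and Ube2c are highest in both Model libraries, Ube2g2 and Ube2q1 are lowest in both MUS libraries, and Ube2e1 goes from 2.48 to 4.79 to 8.64 FPKM on average from Control to Model to MUS.

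The broadly acting E2s that start chains or add single ubiquitins made up 10 genes, of which 9 were tested. None of the 9 passed in Model vs. Control (beside 17.3% of all genes), and 3 were under an unadjusted p of 0.05 (beside 33.6%). The median log2 fold change of the 9 was 0.65, beside 0.04 over all genes (0.14 beside -0.40 on fragment totals). Ube2e2, the gene at the median of 0.65, had a mean of 0.694 FPKM in Control and met the filter through the stimulated groups. Among genes with a mean of at least 5 FPKM, 8 of them broadly acting E2s, the medians were 0.64 beside 0.25. Ube2d3, which is nearly identical to Ube2d2a as a protein and works with many RING ligases, measured 14.6 and 20.0 FPKM in Control, 33.2 and 25.5 in Model, with 27.3 and 23.5 in MUS. Ube2d1 measured 7.21 and 7.81 FPKM in Control, 14.9 and 9.44 in Model, with 11.1 and 9.23 in MUS. In all 3 Ube2d genes tested, both Control libraries lay below the 4 stimulated ones on the deposited scale, which lowers Control relative to fragment totals. Of all genes, 32.6% lay above Control without overlap in Model and 39.6% in MUS.

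Ube2w attaches ubiquitin to the amino terminus of substrates. It measured 4.07 and 5.63 FPKM in Control, 12.4 and 7.54 in Model, with 10.5 and 8.57 in MUS, so that Control lay below the other 4 libraries. Model differed from Control by 0.88 on the log2 scale (SE 0.29, limma adjusted p = 0.0818) and MUS from Control by 0.86 (SE 0.29, adjusted p = 0.0725), neither past the threshold. On fragment totals these were 0.41 and 0.40, without Model replicate 1 the first was 0.56, and the second passed with only Control and MUS in the fit (adjusted p = 0.0488) and without Model replicate 1 or 2 (0.0479 and 0.0476). Ube2l3, a partner of HECT and RBR ligases such as Parkin and HOIP, measured 31.4 and 28.2 FPKM in Control, 27.9 and 26.3 in Model, with 25.9 and 26.8 in MUS. Control lay just above the rest, and the difference of -0.13 in Model vs. Control had an interval of -0.71 to 0.45 (limma adjusted p = 0.730). It was -0.66 on fragment totals and -0.67 under quantile normalization (adjusted p 0.0769 and 0.109), -0.06 without Control replicate 1 and -0.21 without Control replicate 2. Ube2l3 shares 28.6% of its exon bases with Ydjc on the other strand, which measured 0.101 to 0.550 FPKM. Ube2h, which serves the CTLH ligase, ranged from 6.41 to 11.3 FPKM with all 3 groups overlapping. Of its 50-base stretches, 44.2% also occur in other genes, mainly Gm26526, and how reads there were assigned was not tested.

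Ube2e1 belongs to a small subfamily with a long amino-terminal extension, together with Ube2e2 and Ube2e3. It measured 3.10 and 1.85 FPKM in Control, 5.23 and 4.36 in Model, with 8.64 and 8.63 in MUS. The 3 groups did not overlap on the deposited scale, in the order Control, Model, MUS. MUS vs. Control gave the other call among the E2 genes: Ube2e1 rose by 1.49 on the log2 scale (SE 0.24, interval 0.92 to 2.07, limma adjusted p = 0.00754), 1.23 in batch 1 and 1.76 in batch 2. This call was lost without MUS replicate 1 (adjusted p = 0.0791) and without MUS replicate 2 (0.0561), while the fold stayed at 1.49. The difference between MUS and Model was 0.74 (SE 0.24, interval 0.16 to 1.31, limma adjusted p = 0.466), higher in both batches by 0.63 and 0.85. Ube2e3 measured 6.53 and 6.43 FPKM in Control, 12.02 and 6.37 in Model, with 8.02 and 6.37 in MUS, so that only replicate 1 of the stimulated groups stood above Control. Ube2e2 measured 0.510 and 0.878 FPKM in Control against 2.28 and 1.13 in Model and 1.44 and 1.36 in MUS.

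Ube2e1 lies on the minus strand at chr14:18282722-18331859 (GRCm38). Of its exon bases, 16.1% overlap Nkiras1 on the other strand, which measured 0.353 to 0.856 FPKM, below every value of Ube2e1. Its upstream sequence is shown because it is the E2 gene with the call in the muscone group, beside that of Ube2q1, whose MUS libraries were its lowest. Both windows are from RefSeq on GRCm38.p6, written 5′ to 3′ on the strand of the gene and ending just before the gene's start: chr14:18331860-18332094 on the minus strand (235 bases) and chr3:89773359-89773608 on the plus strand (250 bases). Capitals mark a CCAAT box, the one match among the motifs searched.
Ube2e1: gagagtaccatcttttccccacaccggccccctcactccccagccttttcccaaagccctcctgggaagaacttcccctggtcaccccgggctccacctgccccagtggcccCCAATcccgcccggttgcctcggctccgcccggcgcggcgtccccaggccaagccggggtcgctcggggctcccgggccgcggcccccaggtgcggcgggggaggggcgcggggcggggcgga
Ube2q1: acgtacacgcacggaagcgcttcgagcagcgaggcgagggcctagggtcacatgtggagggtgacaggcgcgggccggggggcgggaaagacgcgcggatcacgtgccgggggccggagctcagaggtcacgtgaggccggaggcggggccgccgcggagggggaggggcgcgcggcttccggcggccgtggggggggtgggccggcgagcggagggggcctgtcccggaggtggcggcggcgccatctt
Both are rich in G and C, at 75.7% and 77.2%. Of the 36 genes, 29 had RefSeq windows, 40 in all since a gene can have several starts, and the 250 bases before each RefSeq start were searched on both strands for 5 motifs. The Ube2e1 window is printed only up to the start of the gene in the deposited table. The CCAAT box (CCAAT) was found in 9 of the 40 windows, that of Ube2e1 among them, and in 33.9% of all 32851 windows. A kB form (GGG and TTCC with any 3 bases between them) was found in 4 of the 40 windows, of Ube2d3, Ube2m and Ube2u, beside 4.65% of all windows. An ISRE core (GAAA and GAAA with any 2 bases between them) was found in Ube2dnl1 alone (2.98% of all windows), a CRE (TGACGTCA) in Ube2h alone (1.55%), and an AP-1 site (TGANTCA) in none (6.75%). Matches of different motifs may overlap, and a match is a run of letters rather than a bound site.

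Ube2z is charged by the E1 enzyme Uba6 rather than by Uba1. It measured 16.8 and 24.0 FPKM in Control, 42.4 and 37.4 in Model, with 24.5 and 31.6 in MUS. The groups did not overlap on the deposited scale, with Model highest and MUS between, although Control replicate 2 and MUS replicate 1 were close. The log2 difference in Model vs. Control was 0.96 (SE 0.29, interval 0.26 to 1.65, limma adjusted p = 0.0670), 1.29 in batch 1 and 0.62 in batch 2, and it passed without Control replicate 2 (1.20, adjusted p = 0.0378). On fragment totals it was 0.43 and under quantile normalization 0.48 (adjusted p 0.262 and 0.268). The log2 difference in MUS vs. Control was 0.45 on the deposited scale and -0.06 on fragment totals. The place of MUS between the other groups thus rests on the scale.

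The 2 tested E2s of Lys63 chains gave no call (beside 17.3% of all genes in Model vs. Control, 0% in MUS vs. Model and 24.4% in MUS vs. Control). Ube2n, which builds these chains with Ube2v1 or Ube2v2 in Traf6 signaling, measured 10.3 and 11.2 FPKM in Control, 16.8 and 12.5 in Model, with 13.4 and 12.6 in MUS. On the deposited scale Control lay below both other groups (beside 32.6% of all genes in Model and 39.6% in MUS). The differences did not pass. On fragment totals Ube2n and Ube2v2 were both lower than Control in Model and in MUS, with median log2 fold changes of -0.23 and -0.35. Ube2v2 stayed between 1.39 and 2.26 FPKM with all groups overlapping. The stretches that Ube2n shares with other genes, 9.51% of its 50-base stretches, lie mainly in the pseudogene Ube2n-ps1.

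Among the E2s of Lys48 chains, Ube2r2, a partner of cullin ligases, measured 16.5 and 13.99 FPKM in Control, 28.8 and 20.48 in Model, with 21.8 and 19.5 in MUS. Ube2k, which can build free Lys48 chains, measured 6.28 and 7.14 FPKM in Control, 13.2 and 8.17 in Model, with 12.01 and 8.82 in MUS. In both genes the 4 stimulated libraries lay above Control on the deposited scale (beside 32.6% of all genes in Model and 39.6% in MUS). Neither passed the test. Ube2g1 showed no such order, at 9.72 to 13.3 FPKM over the 6 libraries.

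The RAD6 type enzymes Ube2a and Ube2b add a single ubiquitin to PCNA with Rad18 and to histone H2B with Rnf20 and Rnf40. Ube2b measured 45.3 and 42.4 FPKM in Control, 50.2 and 29.5 in Model, with 32.2 and 26.7 in MUS. Ube2a measured 28.6 and 26.9 FPKM in Control, 31.5 and 19.9 in Model, with 22.7 and 18.9 in MUS. In both, the MUS libraries lay below Control, and the Model libraries lay on either side of it. The log2 difference between MUS and Control was -0.56 for Ube2b (SE 0.33, limma adjusted p = 0.243) and -0.40 for Ube2a (SE 0.30, adjusted p = 0.355). On fragment totals both passed, at -1.09 and -0.92, and under quantile normalization Ube2b passed at -1.13 and Ube2a, at -0.87, did not. Of the 6 RAD6 partner genes tested, 0 passed in either comparison with Control (beside 17.3% of all genes in Model and 24.4% in MUS). Rnf20 measured 5.41 and 6.25 FPKM in Control, 8.89 and 7.87 in Model, with 8.95 and 10.3 in MUS.

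Of the E2s that degrade proteins at the endoplasmic reticulum, Ube2g2, which works with the ligases gp78 and Hrd1, was lowest in MUS. It measured 15.5 and 20.1 FPKM in Control, 23.8 and 19.5 in Model, with 10.7 and 11.2 in MUS. Control and Model overlapped, and both MUS libraries lay below all 4. The group means were 17.8 ± 3.25, 21.7 ± 3.04 and 10.9 ± 0.334 FPKM (SD, n = 2). The log2 difference in MUS vs. Model was -0.92 (SE 0.25, interval -1.52 to -0.32), -1.09 in batch 1 and -0.76 in batch 2 (limma adjusted p = 0.413). Against Control it was -0.65 (SE 0.25, adjusted p = 0.104), which passed under quantile normalization (-0.94) and on fragment totals (-1.16). Ube2j1 and Ube2j2, which are anchored in the membrane of the endoplasmic reticulum, overlapped between all groups, at 20.1 to 26.1 and 5.34 to 10.4 FPKM.

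The NEDD8 enzymes Ube2m and Ube2f pass NEDD8 to cullins, which switches cullin ligases on. Ube2m measured 20.6 and 16.8 FPKM in Control, 33.9 and 24.3 in Model, with 21.8 and 26.6 in MUS. Ube2f measured 3.84 and 7.74 FPKM in Control, 10.2 and 8.93 in Model, with 10.4 and 8.83 in MUS. Both Control libraries lay below the other 4 in both genes on the deposited scale (beside 32.6% of all genes in Model and 39.6% in MUS). The 2 Control libraries of Ube2f lay far apart, however. The log2 difference of Ube2f in MUS vs. Control, 0.71 (SE 0.31, limma adjusted p = 0.140), was 1.24 in batch 1 and 0.17 in batch 2. It was 0.24 on fragment totals and 0.28 without Control replicate 1, and it passed at 1.13 without Control replicate 2 (adjusted p = 0.0300).

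Of the large or atypical E2s, Ube2q1 measured 15.2 and 15.7 FPKM in Control, 18.1 and 17.0 in Model, with 10.7 and 12.2 in MUS. The 3 groups did not overlap on the deposited scale, in the order MUS, Control, Model. Its paralog Ube2q2 measured 13.8 and 17.1 FPKM in Control, 18.7 and 17.9 in Model, with 21.5 and 18.7 in MUS. On the deposited scale MUS was highest there, by 0.13 over Model in log2 (SE 0.24, interval -0.45 to 0.70, limma adjusted p = 0.934). This was 0.03 without MUS replicate 1 and 0.22 without MUS replicate 2. The lower MUS library exceeded the higher Model library only narrowly. Of the 50-base stretches of Ube2q2, 16.4% also occur in Gm4895. Ube2o, a large enzyme that acts as E2 and E3 at once, stayed between 1.21 and 2.45 FPKM.

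MUS vs. Model asked what muscone added. None of the 28 E2 genes passed (0 also by voom on recovered fragments), as none of the 9794 genes did (0% called). At an unadjusted p under 0.05 there were 5 E2 genes, with Ube2e1 higher and Ube2s, Ube2g2, Ube2c and Ube2q1 lower in MUS (3.57% and 14.3% of the 28). Of all genes, 8.42% were under this unadjusted p, 2.61% higher and 5.81% lower. Ube2c, with a mean of 1.07 FPKM, met the filter only through Model (group means 0.891 in Control, 1.64 in Model and 0.680 in MUS). Its place in any count that involves Model therefore rests partly on the filter. Ube2s differed by -1.19 (SE 0.30, interval -1.90 to -0.48, limma adjusted p = 0.382), lower by 1.56 and 0.82 in the 2 batches, and this was the smallest adjusted p of the E2 genes. Ube2c differed by -0.66 (SE 0.26, adjusted p = 0.546), and by -1.20 with a pseudocount of 0.1 and -1.30 by voom. The libraries did not overlap for 3 E2 genes that were higher in MUS (Ube2e1 and Ube2q2 among them; 10.7%, beside 21.2% of all genes) and 5 that were lower (Ube2c, Ube2g2, Ube2q1, Ube2s and Ube2z; 17.9%, beside 21% of all genes). The median over the 28 was -0.14, with 6 higher and 22 lower, beside 0.01 over all genes. Without Model replicate 1 it was 0.05, with 19 higher and 9 lower, so the sign of the median rested on that library.

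**Figure D3:**
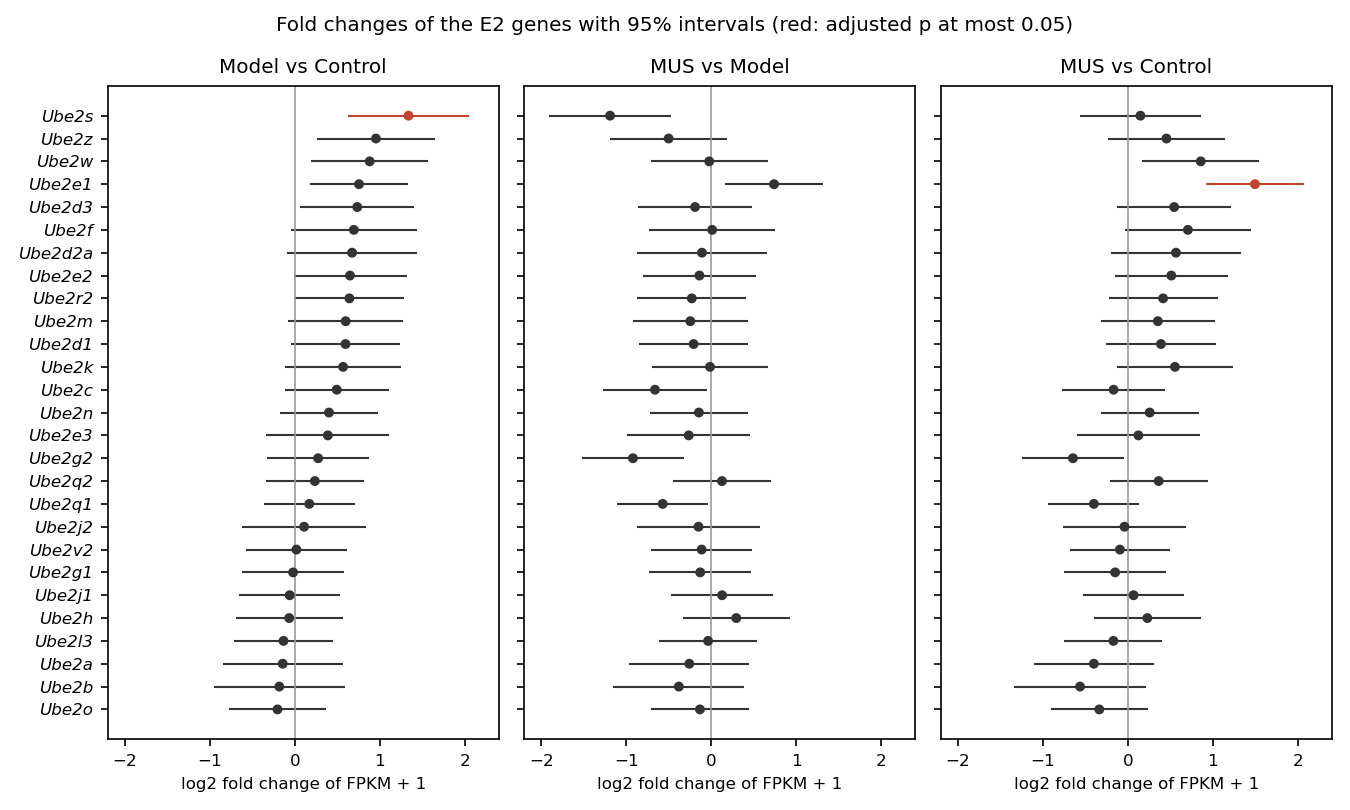
Log2 fold changes of FPKM + 1 for 27 of the 28 tested E2 genes in the 3 comparisons, with 95% intervals from limma, ordered by Model vs. Control in every panel (red: adjusted p at most 0.05). Red marks are Ube2s in Model vs. Control at 1.34 and Ube2e1 in MUS vs. Control at 1.49, and no gene is red in MUS vs. Model.

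In Model vs. Control, 16 E2 genes did not overlap and were higher in Model (57.1%, beside 32.6% of all genes), and 2, with Ube2l3 among them, did not overlap and were lower (7.14%, beside 28.5%). The 16 include Ube2c and Ube2e2, and their place in the count rests partly on the filter. Ube2e2 had group means of 0.694 FPKM in Control, 1.71 in Model and 1.40 in MUS, and met the filter through the stimulated groups. Unadjusted p-values under 0.05 were reached by 6 E2 genes (21.4%, beside 33.6% of all genes), all of them higher in Model (beside 18.7%), namely Ube2d3, Ube2e1, Ube2r2, Ube2s, Ube2w and Ube2z. Ube2e1 in MUS vs. Control was again 1 of 28 past the adjusted p (3.57%, beside 24.4% of all genes and 13% higher), also with the fold required (beside 20.2%). Unadjusted p-values under 0.05 there were those of Ube2e1 and Ube2w, higher, and of Ube2g2, lower (10.7%, beside 39.7% of all genes, 21.1% higher and 18.5% lower). Between these groups 13 E2 genes did not overlap and were higher in MUS (46.4%, beside 39.6%), and 7 were lower (25%, beside 33.8%), among them Ube2a, Ube2b, Ube2g2, Ube2l3, Ube2o and Ube2q1. The 13 again include Ube2e2, which met the filter through the stimulated groups. The median was 0.19, beside 0.04 over all genes, and it was -0.28, beside -0.39, on fragment totals. At a mean of at least 5 FPKM it was 0.24, beside 0.25. The comparisons share libraries, so they are not independent of each other. For 1 gene alone, exact permutation of 2 against 2 libraries gives no p below 0.333, and the calls rest on the spread that limma pools across genes.

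**Figure D4:**
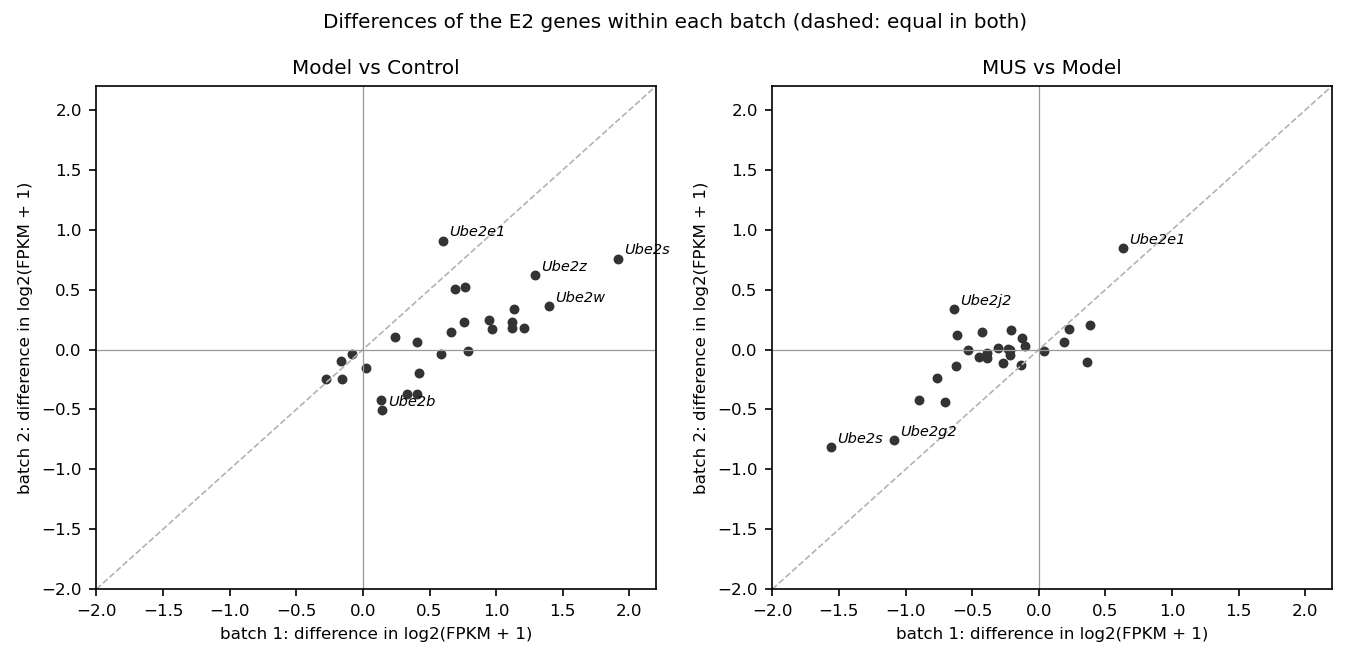
Differences in log2(FPKM + 1) of the 28 tested E2 genes in batch 1 (horizontal) and batch 2 (vertical), for Model vs. Control (left) and MUS vs. Model (right), each point 1 gene and the dashed line equality. In Model vs. Control most points lie below the line, with medians of 0.63 in batch 1 and 0.12 in batch 2. In MUS vs. Model 17 of the 28, with Ube2s, Ube2g2 and Ube2e1 among them, keep their sign in both batches, beside 5892 of all 9794 genes.

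The batches, which the labels number like the replicates, differed in size of effect. In Model vs. Control 24 of the 28 E2 genes were higher in batch 1 and 16 in batch 2, beside 5092 and 4980 of all 9794 genes. The same direction in both batches was found for 20 of the 28, beside 7275 of the 9794. The medians were 0.63 and 0.12, beside 0.04 and 0.01 over all genes. In MUS vs. Model the medians were -0.29 in batch 1 and -0.01 in batch 2, beside -0.008 and 0.004 over all genes. There 17 of the 28 had the same direction in both batches, beside 5892 of the 9794. Model replicate 1 is the Model library of batch 1. The summed FPKM of the 36 genes was 369 and 401 in Control, 565 and 427 in Model, with 444 and 407 in MUS. Without Model replicate 1 the libraries ranged from 369 to 444. These sums use the deposited per-million scale, which is 1.45 and 1.34 times the fragments on genes in Control. In Model and MUS it is 0.909 to 0.998 times, so the sums of Control are lowered. On fragment totals the E2 median was -0.10 in Model vs. Control and -0.28 in MUS vs. Control.

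**Figure D5:**
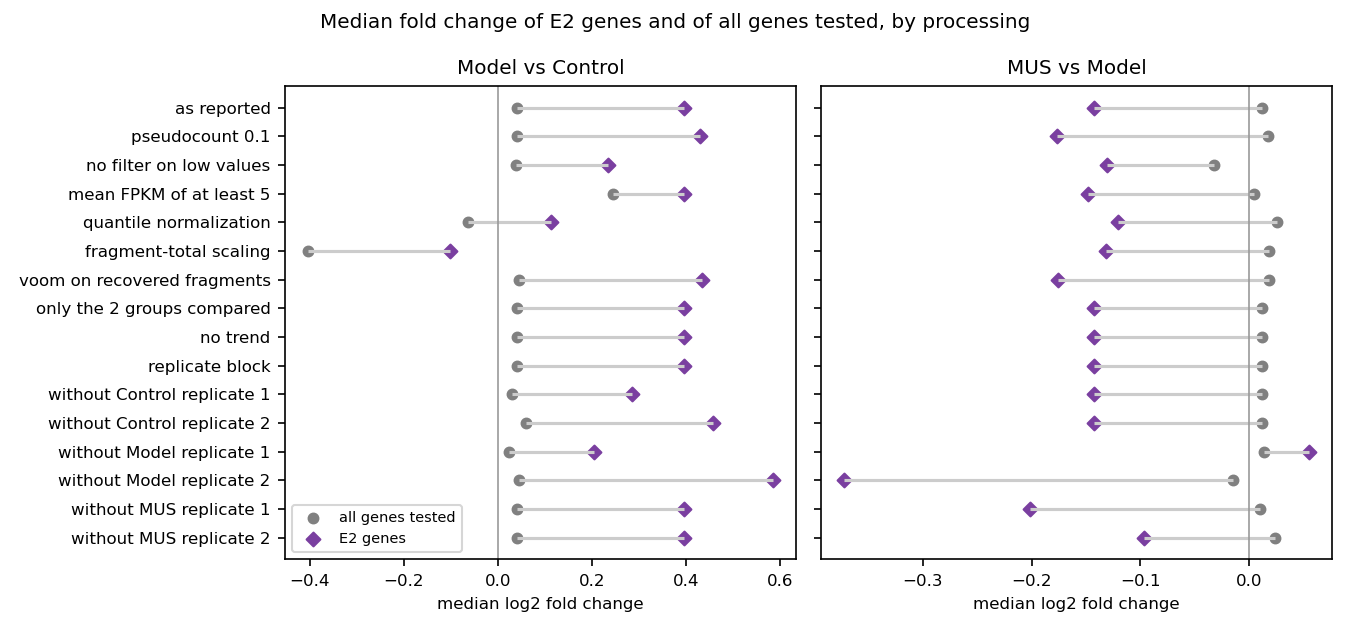
Median log2 fold change of the tested E2 genes (purple diamonds) and of all genes tested (grey circles) under each processing, for Model vs. Control (left) and MUS vs. Model (right). In Model vs. Control the E2 median lies right of the median of all genes under all settings and falls to -0.10 on fragment totals, and in MUS vs. Model it lies left of 0 under all settings but 1, the one without Model replicate 1, at 0.05.

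The enzymes before and after the E2s were taken from lists of 119 genes, of which 100 were tested. In Model vs. Control 10 passed the adjusted p, 8 higher and 2 lower (10%, beside 17.3% of all genes), with a median of 0.12, but on fragment totals 17 passed, 4 higher and 13 lower, with a median of -0.36, and under quantile normalization the median was -0.05. In MUS vs. Model 0 passed (the smallest p was that of Ufc1, the E2 for UFM1, at 30.3 and 14.9 FPKM in Model against 7.70 and 11.3 in MUS), and in MUS vs. Control 17 did, 10 higher and 7 lower (17%, beside 24.4%), or 4 higher and 15 lower on fragment totals. Of the E1 enzymes, 2 of 10 passed in Model vs. Control (beside 17.3% of all genes). Uba7, the E1 for the ubiquitin-like protein ISG15, measured 2.30 and 3.87 FPKM in Control, 21.9 and 36.5 in Model, with 24.0 and 31.0 in MUS, a rise of 2.87 in Model on the log2 scale used for all list genes here, and Atg7, the E1 of autophagy conjugation, fell by 1.39.

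Ligases that work with Ube2n on Lys63 chains gave 3 calls of 10 in Model vs. Control, all higher (beside 10.3% of all genes). Peli1, a ligase of Toll-like receptor signaling, rose by 2.53, Trim25, a ligase of RIG-I signaling, rose by 1.79, and Znrf1 rose by 1.27. Trim25 measured 48.8 and 43.1 FPKM in Control, 155 and 166 in Model, with 148 and 159 in MUS, with Control far below the other 4 libraries. Among the RBR ligases, which take ubiquitin from Ube2l3, Rnf31, the catalytic subunit of the linear chain assembly complex, rose by 1.34, and Rnf144b fell by 1.29 (2 of 10, beside 17.3% of all genes). Some other lists had 1 gene that rose in Model, near the share of 10.3% over all genes. These genes were Ranbp2, a SUMO ligase of the nuclear pore, by 1.15 (1 of 9), Dcun1d3, a factor in cullin neddylation, by 1.06 (1 of 12), and Rnf139, a ligase of the endoplasmic reticulum, by 1.005 (1 of 10). On fragment totals the log2 fold changes in Model vs. Control of Ranbp2, Dcun1d3, Rnf139 and Znrf1 were 0.63, 0.65, 0.53 and 0.77, and that of Rnf31 was 0.88. The E2 enzymes with other names gave 0 calls of 8 in Model vs. Control (beside 17.3% of all genes). Aktip, an inactive E2-like protein, measured 3.001 and 2.60 FPKM in Control, 2.00 and 1.29 in Model, with 1.88 and 1.39 in MUS.

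Of the Fanconi anemia core, the ligase that works with Ube2t, 4 of 10 genes were tested, and 3 of them fell in MUS vs. Control. These 3, Fance, Fancf and Fancg, lay under 1 FPKM in both MUS libraries and met the filter on the mean through Control. The filter thus partly sets this count, and it cannot be compared with the 11.4% of all genes that were called lower. Fance fell by 1.37, and Fancf measured 1.79 and 2.02 FPKM in Control, 0.796 and 0.725 in Model, with 0.626 and 0.619 in MUS. Rnf5, a ligase of the endoplasmic reticulum, fell by 1.36 at low levels, from 3.42 and 2.51 FPKM in Control to 0.134 and 1.08 in MUS. Each of these called list genes kept its direction under every alternative in which it was tested, while the adjusted p passed under all 15 alternatives for Uba7 in both comparisons with Control, for Trim25 under 15 in Model vs. Control and 13 in MUS vs. Control, and for the other genes under 5 to 13.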

How the data were processed

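The authors deposited 1 table of FPKM for the 6 libraries. The study's methods name RSEM for quantification and DESeq2 for its DEGs, while the submitters' processing notes name HISAT2, featureCounts 1.5.0-p3 and GRCm39. The table's gene starts and ends equal those of GENCODE M21 on GRCm38 for 98.3% of 54495 shared genes (35 of the 36 E2 genes), so positions are given on GRCm38. FPKM times gene length was a whole multiple of 1 step per library (tolerance 0.1) for 100% of values. The deposited per-million scale is 1.45 and 1.34 times the fragments on genes in Control but 0.909 to 0.998 times in Model and MUS, which lowers Control relative to a scaling on fragment totals. Fragments cover counting error only.

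Groups came from the sample labels, and doses from the methods. The E2 genes and all lists were chosen with earlier results of these data known. In R 4.3.3, limma 3.58.1 (lmFit, contrasts.fit, eBayes with trend) was fitted to log2(FPKM + 1) for the 9794 genes with a mean of at least 1 FPKM, all 6 libraries in 1 model of 3 groups (3 residual and 4.04 prior degrees of freedom), two-sided, with Benjamini-Hochberg adjustment over all genes tested. The fit was tested on simulated data. DESeq2 was not run, since the table holds FPKM. Fold changes with SE and adjusted p were given for E2 genes past the adjusted p and for the 3 highest and 3 lowest among those whose libraries did not overlap. Of a list, up to 3 genes past both thresholds were named, otherwise the gene with the smallest p.

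The labels number batches like replicates. Differences between replicate 1 and replicate 2 correlated across the 9794 genes at 0.12 between Control and Model, at 0.14 between Model and MUS, but at -0.09 between Control and MUS, and a replicate block was run as an alternative. The others were another pseudocount (0.1), no filter, a mean of at least 5, quantile normalization, fragment totals, voom, only the 2 groups compared, no trend, and leaving out each library. Values were prepared in Python 3.11.15 with pandas 2.3.3, and drawn with Matplotlib 3.10.9. Columns with no sample numbered 0. The results of 2 genes are not reported here, and 1 of them, a tested E2 gene, enters the counts and medians but is left out of the plots that name genes.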

Additional observations from a re-analysis of the deposited data

How the results depend on the processing

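Each E2 gene given with a fold change and SE kept its direction under all alternatives, and in MUS vs. Model the counts of called E2 genes and list genes were 0 throughout. In Model vs. Control the 1 called E2 gene became 0 with no filter on low values and with only the 2 groups compared, under both call rules. On fragment totals it was 0 with the fold required, and at any fold the count stayed at 1 but no longer held Ube2s. Leaving out 1 library gave 0 to 3, with 3 (Ube2z, Ube2f and Ube2s) without Control replicate 2 and 0 without Control replicate 1, Model replicate 1 or either MUS library. In MUS vs. Control the 1 called E2 gene became 0 with no filter, 2 with the fold and 3 at any fold under quantile normalization, 3 and 5 on fragment totals, and 2 at any fold with only the 2 groups compared. Leaving out 1 library gave 0 to 2 under both rules. With no filter 30192 genes were tested in place of 9794. Ube2s then had an adjusted p of 0.136 in Model vs. Control and Ube2e1 of 0.0555 in MUS vs. Control, and with only the 2 groups Ube2s had 0.0700. The cause of the other changes was not tested.

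Of the genes in the lists, 10 in Model vs. Control (8 higher, 2 lower) became 2 with no filter, 17 on fragment totals (4 higher, 13 lower) and 4 with only the 2 groups, and 3 to 15 without 1 library. In MUS vs. Control 17 (10 higher, 7 lower) became 19 on fragment totals (4 higher, 15 lower), 2 with no filter, 11 at a mean of at least 5, and 1 to 18 without 1 library. Over all genes, DEGs in Model vs. Control numbered 1475, but 260 with no filter, 797 with only the 2 groups, and 692 to 2077 without 1 library. In MUS vs. Control they numbered 1980, but 456 with no filter and 184 to 2398 without 1 library. In MUS vs. Model 0 became 1 with a pseudocount of 0.1, 7 with only the 2 groups, and 0 to 31 without 1 library. At any fold, 1011 higher and 680 lower genes in Model vs. Control became 787 and 832 under quantile normalization and 704 and 2075 on fragment totals, and in MUS vs. Control 1273 and 1118 became 1036 and 1324, and 799 and 2511. The replicate block left the called E2 genes at 1, 0 and 1 in Model vs. Control, MUS vs. Model and MUS vs. Control, changed no call of an E2 gene, and gave 4 DEGs over all genes in MUS vs. Model. Depth limits the low E2 genes: Ube2c rested on 288 fragments in all and Ube2t on 76.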

Other observations

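The table also lists 2 expressed pseudogenes with E2 names, which the rule on protein-coding genes leaves out. Ube2n-ps1, a processed pseudogene of 459 bases whose 50-base stretches all occur in Ube2n, measured 5.72 and 11.0 FPKM in Control, 0.926 and 1.83 in Model, with 5.48 and 10.9 in MUS. This rests on 60 and 116 fragments in Control, 6 and 13 in Model, with 38 and 81 in MUS. Both Model libraries lay below the other 4, whereas Ube2n itself was lowest in Control on the deposited scale. Fragments of the pseudogene and of its parent cannot be told apart by sequence where they are identical. Ube2d-ps measured 3.61 and 4.97 FPKM in Control, 5.87 and 4.29 in Model, with 3.24 and 3.87 in MUS, with Control and Model overlapping.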
